A study of Mus musculus with 6 samples.

Results

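The genes described here belong to the piRNA pathway of the germline and to the RNA-binding machinery that germ cells share with it. The set holds 32 genes, chosen by name for their known roles, and they were found on the arrays through the transcript accession of each probe. A probe was matched for 31 of the 32. No probe mapped to Piwil4, which is not analysed here. In all, 30 of the genes were well above background on at least 3 arrays and were tested among 14860 named genes.

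PIWI-interacting RNAs (piRNAs) are small RNAs that guide PIWI-clade Argonaute proteins to transposon transcripts in germ cells. Precursor transcripts are cut on the outer mitochondrial membrane, trimmed and methylated at their ends, and loaded PIWI proteins are held in cytoplasmic granules by tudor-domain proteins that bind methylated arginines. In the mouse testis the pathway is known for silencing retrotransposons, and males that lack most of its components are sterile through arrest of spermatogenesis. Germline helicases and RNA-binding proteins such as Ddx4 and Dazl occupy the same granules or control translation of germ cell messages.

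The cells were mouse spermatogonial stem cells in culture, from which spermatogenesis is renewed in the animal. They had been derived from dissociated testis cells and passaged before transfer to mouse embryonic fibroblast feeders. Strain, age and number of animals are not given in the sources used here. In the treated group, 3 cultures received captopril, an inhibitor of angiotensin-converting enzyme (ACE), labelled 0.01 M, for 24 h, and in the control group 3 cultures received sterile water, to which the labels attach the same 0.01 M. Each culture gave 1 single-colour Agilent array, numbered replicate 2, 3 or 4 within its group. The labels call the cultures independent without tying them to separate animals, so p-values measure the spread between these cultures. The comparison asks which transcripts of the pathway differ between captopril and water.

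Levels below are log2 of the spot signal minus the 75th percentile of the same array, so a level of 0 is that of the spot at this percentile. A level can be compared between arrays for one gene, not between genes. The 75th percentile of the signal ran from 1875 to 3424, and 52.2% to 60.5% of the spots of an array were well above background. Water replicate 3 stood apart: it correlated at 0.878 to 0.893 with the other arrays over 32380 probes, whereas r among the other 5 was 0.970 to 0.991. Fold changes of the set are therefore given for the 6 arrays and for the 5 arrays without it. Slide row 1 held water replicates 2 and 3, and slide row 2 held water replicate 4 and all captopril arrays.

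The cultures expressed nearly the whole set. Of the 31 genes with a probe, 29 were well above background on all 6 arrays, against 13423 of 20268 named genes with a probe. Among the 29 were genes whose proteins act later in spermatogenesis, such as Piwil1 and Boll. The exceptions in the set were Mybl1, above background on the 3 water arrays and on no captopril array, and Tdrd6, above background on water replicate 2 alone. Of 20 germ cell markers outside the set, all were measured and 18 were above background on every array, Zbtb16, Ret, Etv5 and Id4 among them. Of the 8 spermatocyte markers, all were measured and 7 were above background on every array, Sycp1, Sycp3, Dmc1 and Tex14 among them. Of the spermatid markers, 3 of 11 were measured, Tnp1, Akap4 and Spaca1, each above background on all 6 arrays. Prm1, Prm2, Acr and Odf1 were at background on all 6 arrays. Of the 17 feeder fibroblast markers, all were above background on every array. In such RNA from whole cultures, fewer cells of a type cannot be told apart from less RNA per cell.

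No gene of the set passed the test for a difference between captopril and water. By limma, 0 of 30 had an adjusted p under 0.05 over the 6 arrays, where 0% of all genes tested did, and 0 of 30 over the 5 arrays, where 0.619% of all genes did. The smallest adjusted p in the set was 0.548 over 6 arrays and 0.111 over 5. At an unadjusted p under 0.05 there were 3 of the 30 over 6 arrays (10%, against 8.24% of all genes), 2 of them lower (6.67%, against 4.93%), and 4 of the 30 over 5 arrays (13.3%, against 19.1%). Mybl1 is in each of these counts but is no support in them, since it passed the background filter only through its water arrays. As captopril minus water on the log2 scale, the median difference was −0.12 over 6 arrays beside −0.03 for all genes, and 0.05 over 5 arrays beside 0.07 for all genes. Over 6 arrays 19 of the 30 values were negative (63.3%, against 53.3% of all genes). Over 5 arrays 13 were negative and 17 positive (43.3% and 56.7%, against 41.5% and 58.5% of all genes).

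**Figure D1:**
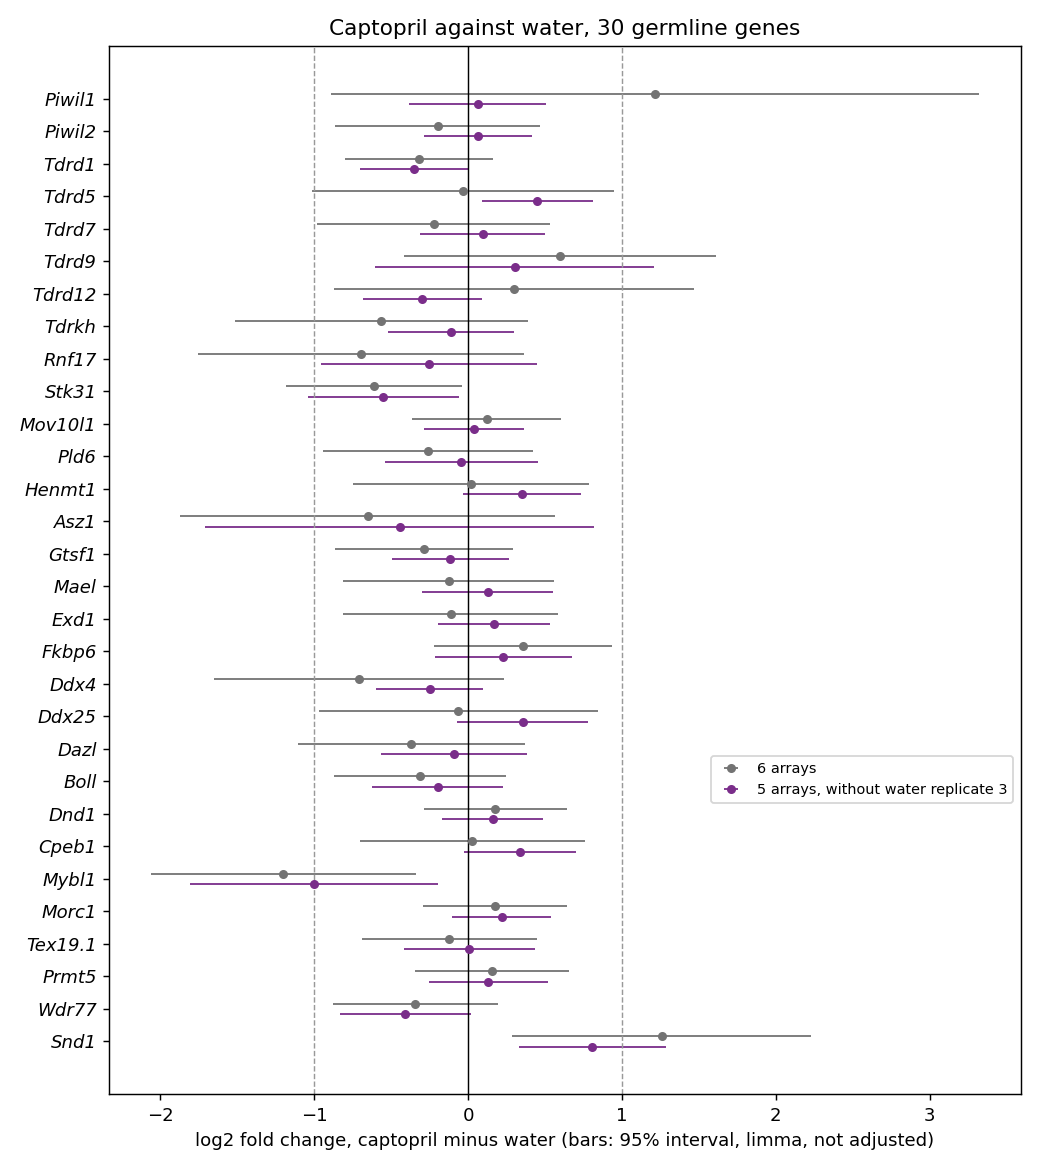
Log2 fold change (captopril minus water, horizontal axis) of the 30 measured genes, with 95% intervals from limma that are not adjusted for the number of genes, over 6 arrays (grey) and over the 5 arrays without water replicate 3 (purple). Dashed lines mark a 2-fold difference in either direction, and in the fit of 5 arrays 25 of the 30 intervals lie between them.

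The interval of the difference shows what the arrays could have missed. Over the 5 arrays, the 95% interval lay inside a 2-fold difference in both directions for 25 of the 30 genes, a share of 83.3% beside 81.2% of all genes. The 5 others were Tdrd9, Stk31, Asz1, Mybl1 and Snd1. Over the 6 arrays 18 of the 30 intervals did so, a share of 60% beside 49% of all genes. Mov10l1, the helicase that binds piRNA precursors, had the smallest range of the set on the captopril arrays. It stood at 1.79, 1.57 and 1.86 on water replicates 2, 3 and 4 and at 1.84, 1.87 and 1.88 on the captopril arrays. Its log2 fold change was 0.12 over 6 arrays and 0.04 over 5, with an interval from −0.29 to 0.36 in the latter.

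The groups were free of overlap in 8 of the 30 genes (26.7%) over the 6 arrays, against 21.5% of all genes. Dnd1, Morc1 and Snd1 lay higher on every captopril array (3 genes, 10%, beside 10% of all genes), and Tdrd1, Stk31, Ddx4, Mybl1 and Wdr77 lay lower (5 genes, 16.7%, beside 11.4%). Without water replicate 3 there were 14 such genes (46.7%, against 42.9% of all genes), 8 of them higher and 6 lower, beside 27.2% and 15.7% of all genes. With each array scaled by its median, 1 of the 30 lay higher and 8 lower over the 6 arrays, while 3.80% of all genes lay higher and 21.6% lower. That scaling moved the median log2 fold change of all genes from −0.03 to −0.33 and that of the set from −0.12 to −0.42. Over the 5 arrays it gave 6 higher and 9 lower (all genes 16.6% and 26.2%), and quantile normalization gave 7 and 8 (all genes 23.4% and 20.4%). Over the 6 arrays, Dnd1 and Morc1 did not separate the groups when each array was scaled by its median, and Morc1 did not in the authors' table. Tdrd1, Stk31 and Snd1 kept their separation over the 6 arrays under each of the 4 other scalings tried, the authors' table among them. Mybl1 is no support in these counts, since it passed the filter on dim probes only through its water arrays.

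**Figure D2:**
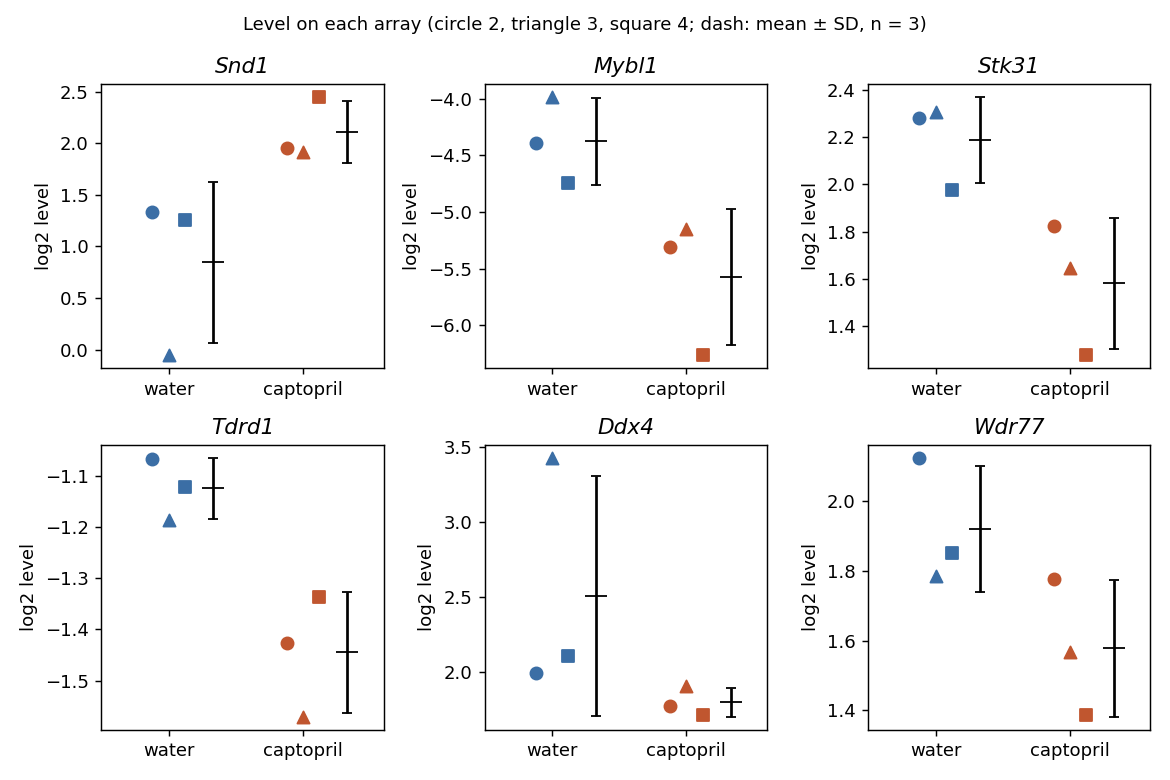
Log2 level on each array for Snd1, Mybl1, Stk31, Tdrd1, Ddx4 and Wdr77 in water (blue) and captopril (orange), with the mean and SD of each group of 3 arrays beside the points. In each panel all captopril arrays lie on one side of the water arrays, and water replicate 3 (triangle) is far from its group for Snd1 and Ddx4.

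Snd1 had the largest positive log2 fold change of the set over 6 arrays and over 5. Snd1 encodes a tudor-domain and staphylococcal-nuclease-like protein that is expressed in many tissues and binds PIWI proteins. Its level was 1.34, −0.06 and 1.26 on water replicates 2, 3 and 4 and 1.95, 1.91 and 2.45 on captopril replicates 2, 3 and 4. The captopril arrays lay above all water arrays, and water replicate 3 was the lowest of all. The log2 fold change was 1.26 over 6 arrays (SE 0.41, limma adjusted p = 0.574) and 0.81 over 5 arrays (SE 0.20, adjusted p = 0.111), a 1.75-fold difference with a 95% interval from 0.33 to 1.29 on the log2 scale. Against water replicate 4 alone, the single water array of slide row 2, it was 0.85.

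Mybl1 encodes A-MYB, the transcription factor that drives piRNA precursor and piRNA pathway genes at the pachytene stage of meiosis. Its probe was dim, at −4.39, −3.98 and −4.75 on water replicates 2, 3 and 4, each well above background. On captopril replicates 2, 3 and 4 it read −5.31, −5.15 and −6.26, none of which was well above background. Each captopril reading was set to the lowest signal counted as well above background on that array, or kept where it was higher. Mybl1 was then 1.66-fold lower with captopril over 6 arrays and 1.45-fold lower over 5 arrays in the main setting. Its limma adjusted p was 0.548 over 6 arrays and 0.190 over 5. These folds rest on signals close to background and set no minimum. With normexp background correction the fitted log2 difference of the probe was −0.52 over 6 arrays, against −1.20 in the main setting, and −0.36 over 5.

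Among the PIWI proteins, the 2 with a probe did not separate the groups. Piwil2 (MILI), the PIWI protein of spermatogonia, stood at 3.23, 3.96 and 3.12 in water and at 3.22, 3.35 and 3.14 with captopril, replicates 2, 3 and 4 in each case. Its log2 fold change was −0.20 over 6 arrays and 0.06 over 5, with an interval from −0.29 to 0.42 in the latter. Piwil1 (MIWI), which is known from meiotic and postmeiotic cells, stood at −0.94, −4.50 and −1.13 in water and at −0.89, −0.78 and −1.25 with captopril. A single array therefore set its 6-array value of 1.22 (SE 0.89), and without it the value was 0.06 (SE 0.19).

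The tudor-domain scaffolds, which gather PIWI proteins through methylated arginines, had values of both signs. Stk31, a tudor protein with a kinase-like domain, stood at 2.28, 2.31 and 1.98 on water replicates 2, 3 and 4 and at 1.82, 1.64 and 1.27 with captopril. Every captopril array lay below every water array, water replicate 3 included, and the log2 fold change was −0.61 over 6 arrays (SE 0.24, limma adjusted p = 0.595) and −0.55 over 5 (SE 0.21, adjusted p = 0.225). Tdrd1, the partner of Piwil2 in the granules between mitochondria, stood at −1.07, −1.19 and −1.12 in water and at −1.43, −1.57 and −1.34 with captopril. The arrays of each group lay close together, and the difference was small, −0.32 over 6 arrays (SE 0.20, adjusted p = 0.640) and −0.35 over 5 (SE 0.15, adjusted p = 0.262). Tdrd12, which acts in secondary piRNA production, stood at 0.68 and 0.53 on water replicates 2 and 4 and at 0.45, 0.35 and 0.12 with captopril. On water replicate 3 it stood at −1.19, so that its sign differed between the fits, 0.30 over 6 arrays and −0.30 over 5.

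Tdrd5, a tudor protein needed for pachytene piRNA production, lay the other way without water replicate 3. Its brighter probe stood at 1.26 and 1.27 on water replicates 2 and 4 and at 1.59, 1.69 and 1.86 with captopril, a log2 fold change of 0.45 over 5 arrays (SE 0.15, limma adjusted p = 0.187). The other probe of the same transcript gave 0.06, and its groups overlapped. Over 6 arrays the brighter probe gave −0.03, since water replicate 3 stood at 2.72. Tdrd9, a helicase with a tudor domain that works with Piwil4, varied most among captopril arrays within this group, at −0.03, 0.19 and −1.06. Its captopril range covered both water replicate 2 at −0.32 and water replicate 4 at −0.89, water replicate 3 stood at −1.49, and the log2 fold change was 0.60 over 6 arrays and 0.30 over 5. Rnf17, a granule component of later germ cells, had captopril levels of −1.58, −0.93 and −1.96 around −1.14 and −1.34 on water replicates 2 and 4. Water replicate 3 stood at 0.09, and the log2 fold change was −0.70 over 6 arrays and −0.25 over 5. Tdrd7 and Tdrkh, the mitochondrial tudor protein that aids piRNA trimming, had log2 fold changes of 0.09 and −0.11 over 5 arrays, with SE of 0.17 each, and of −0.22 and −0.56 over 6. Tdrd6, a scaffold of the chromatoid body in spermatids, read −4.87, −6.91 and −4.75 on water replicates 2, 3 and 4 and −4.85, −5.05 and −4.68 with captopril, and no fold is given since both groups were near background.

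Among the biogenesis factors no gene separated the groups over 6 arrays. Asz1, which sits on the mitochondrial surface where piRNA precursors are processed, was the most variable gene of the set on the captopril arrays. It stood at 1.59, 0.89 and −0.25 on captopril replicates 2, 3 and 4 and at 0.72, 1.81 and 1.66 on water replicates 2, 3 and 4. The log2 fold change was −0.65 over 6 arrays (SE 0.52) and −0.44 over 5 (SE 0.53). Henmt1, which methylates the 3′ end of piRNAs, stood at 0.71 and 0.69 on water replicates 2 and 4 and at 0.92, 0.98 and 1.26 with captopril. Its log2 fold change was 0.35 over 5 arrays (SE 0.16, limma adjusted p = 0.292). Over 6 arrays it was 0.02, with water replicate 3 at 1.70. The other probe of Henmt1 gave 0.97 over 6 arrays and 0.11 over 5, with overlapping groups, and the mean of both probes gave 0.50 and 0.23.

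The other biogenesis genes stayed within a narrow band on the 5 arrays. Their log2 fold changes were −0.04 for the nuclease gene Pld6 (zucchini), −0.12 for Gtsf1, which assists PIWI slicing, and 0.13 for Mael, a granule protein needed for retrotransposon silencing. Exd1, a nuclease-like partner of Tdrd12, gave 0.17, and Fkbp6, a co-chaperone of piRNA loading, gave 0.23. Over 6 arrays the values of Pld6, Gtsf1, Mael, Exd1 and Fkbp6 were −0.26, −0.29, −0.12, −0.11 and 0.36. The SE of these 5 genes over 5 arrays ran from 0.15 to 0.21, and Exd1 alone of them had groups that did not overlap, over the 5 arrays.

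The germline helicases and RNA-binding proteins gave values of both signs. Ddx4 (mouse vasa homologue), the helicase that marks germ cells, stood at 1.99, 3.43 and 2.10 on water replicates 2, 3 and 4 and at 1.77, 1.90 and 1.71 with captopril. The captopril arrays lay below all water arrays, though not under normexp background correction. The log2 fold change was −0.71 over 6 arrays (SE 0.40, limma adjusted p = 0.631) and −0.25 over 5 (SE 0.15, adjusted p = 0.388). Dazl, a translational activator of germ cell messages, stood at 3.41, 4.19 and 3.31 in water and at 2.98, 3.26 and 3.56 with captopril, and the groups overlapped. Its log2 fold change was −0.37 over 6 arrays and −0.09 over 5. Ddx25, a helicase of spermatids, and Cpeb1, a polyadenylation regulator, had log2 fold changes of 0.36 and 0.34 over 5 arrays, with adjusted p of 0.323 and 0.287 by limma, and both were near 0 over 6 arrays, at −0.06 and 0.03.

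Dnd1, which is required for survival of germ cells, lay higher on each captopril array by a small amount. It stood at 2.55, 2.50 and 2.55 on water replicates 2, 3 and 4 and at 2.67, 2.70 and 2.77 with captopril. The log2 fold change was 0.18 over 6 arrays and 0.16 over 5, with SE of 0.20 and 0.14. limma draws these SE partly from the spread of all genes, so they exceed the spread of these arrays. Boll, a relative of Dazl that acts in meiosis, gave −0.32 over 6 arrays (SE 0.24) and −0.20 over 5 (SE 0.18).

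Morc1, which represses transposons in male germ cells, stood at 2.36, 2.48 and 2.35 in water and at 2.59, 2.59 and 2.54 with captopril, replicates 2, 3 and 4. The log2 fold change was 0.18 over 6 arrays and 0.22 over 5, with SE of 0.20 and 0.14. Tex19.1, a germline gene with a role in retrotransposon control, gave −0.12 over 6 arrays and 0.01 over 5, with an interval from −0.42 to 0.43 in the latter. Prmt5, the methyltransferase that dimethylates arginines of PIWI proteins, gave 0.15 over 6 arrays (SE 0.21) and 0.13 over 5 (SE 0.16). Wdr77, its partner in the methylosome, stood at 2.12, 1.78 and 1.85 on water replicates 2, 3 and 4 and at 1.78, 1.57 and 1.39 with captopril on its brighter probe. The groups barely separated, and did not under normexp background correction or quantile normalization. The log2 fold change was −0.34 over 6 arrays (SE 0.23) and −0.41 over 5 (SE 0.18). On its other probe the value was 0.93 over 6 arrays and −0.47 over 5.

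**Figure D3:**
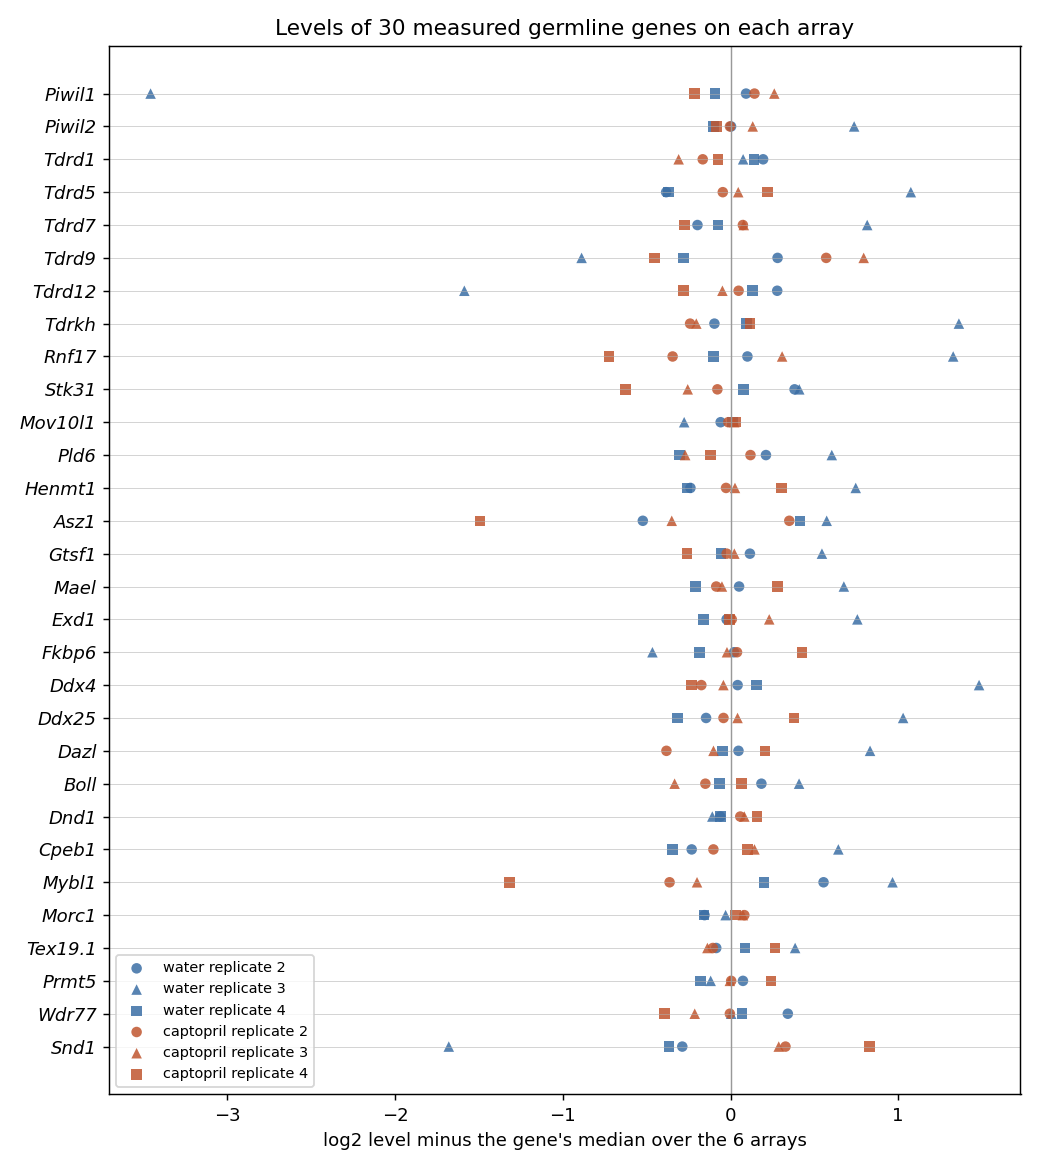
Level of each of the 30 measured genes on each array, as log2 minus the gene's own median over the 6 arrays, with water arrays in blue and captopril arrays in orange. Water replicate 3 (blue triangles) lies outside the range of the other 5 arrays for 26 of the 30 genes, above them for 19 and below them for 7.

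Water replicate 3 lay outside the range of the other 5 arrays for 26 of the 30 genes (86.7%, against 78.9% of all genes), above it for 19 (63.3%, against 54.8%) and below it for 7 (23.3%, against 24.1%). In 10 of the 30 (33.3%, against 30.3% of all genes) it was at least 1 log2 unit from the mean of the others. Ddx4, Rnf17, Tdrkh, Mybl1, Tdrd5 and Ddx25 stood higher there, by 1.53, 1.48, 1.43, 1.19, 1.18 and 1.05 (6 genes, 20%, against 15.2% of all genes). The value of Mybl1 there is taken against a mean that includes 3 arrays not well above background. Piwil1, Snd1, Tdrd12 and Tdrd9 stood lower, by values of −3.50, −1.84, −1.61 and −1.07 against the mean of the others (4 genes, 13.3%, against 15% of all genes). The median range over the other 5 arrays was 0.51 for the set and 0.58 for all genes.

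Probes of one transcript did not always move together on that array. Henmt1 was read by a pair of probes matched to the same transcript, and on water replicate 3 the brighter stood 0.79 above the mean of the other arrays while the dimmer stood at −2.65 against it. For Wdr77 the brighter probe stood 0.04 above and the dimmer at −3.92. The probes of Tdrd5 both stood higher, by 1.18 and 0.63.

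**Figure D4:**
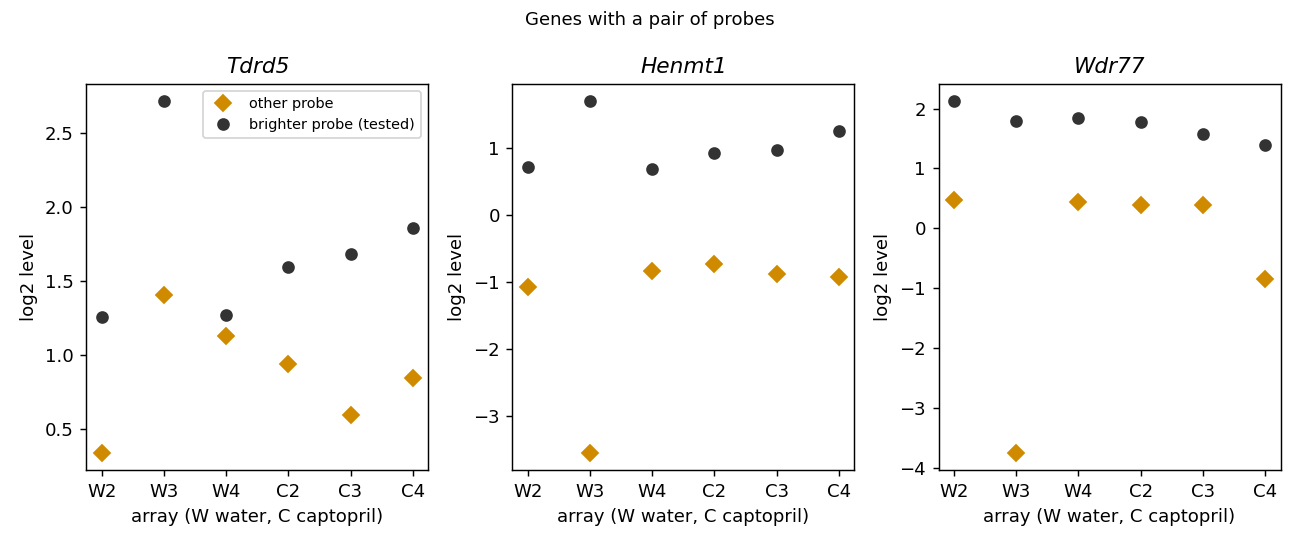
Log2 level on each array (W water, C captopril, with the replicate number) of the brighter, tested probe (dark circles) and the other probe (orange diamonds) of Tdrd5, Henmt1 and Wdr77. The dimmer probes of Henmt1 and Wdr77 read −3.54 and −3.75 on water replicate 3, far below their other arrays, while the brighter probes do not.

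Cell type markers moved with water replicate 3 as well. The summed linear signal of the 17 feeder fibroblast markers, in multiples of the array's 75th percentile, was 203 to 380 on the water arrays, with the highest on replicate 3, and 197 to 238 with captopril. That of the 20 germ cell markers was 109 to 131 in water, also with the highest on replicate 3, and 119 to 146 with captopril. Bright genes weigh most in such a sum, and single germ cell markers went both ways on water replicate 3. Foxo1 and Id4, both at 3.30, stood above all their other arrays there. Dppa4, Dmrt1, Sall4, Pou5f1 and Uchl1 stood below all of theirs, at −2.41, −1.63, 0.49, 1.07 and 2.06. Relative to each gene's median over the 6 arrays, the median of the 20 markers there was 0.44. Of the germ cell markers, Gfra1 alone was not well above background on water replicate 3. The spermatocyte marker Spo11 and the leukocyte markers Lyz2 and Ptprc were also not well above background there. The 8 spermatocyte markers summed to 20.1 to 31.4 in water, with the highest on replicate 3, and to 16.7 to 19.6 with captopril. Of their 8 values 6 were negative in each fit, beside 53.3% of all genes over 6 arrays and 41.5% over 5. In each fit 3 of the 8 lay lower without overlap and 0 higher, beside 11.4% and 10% of all genes over 6 arrays and 15.7% and 27.2% over 5. Of the 8 Sertoli markers, 5 were measured, summing to 6.03 to 11.5 in water and 5.30 to 6.91 with captopril, and Amh and Fshr were above background on no array. The part of these markers in the values of the set was not tested.

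Of the 8 genes that separated the groups over all 6 arrays, the promoters of Stk31, Tdrd1, Ddx4 and Wdr77, which lay lower with captopril, and of Snd1, which lay higher, are shown. Those of Mybl1, Dnd1 and Morc1 are not in the table used. Each is the 250 bases before the first listed transcription start in RefSeq on GRCm38.p6, written 5′ to 3′ on the strand of the gene, with capitals marking CACGTG, the E-box read by MAX-containing complexes that hold germline genes silent in other cells.
Stk31, chr6:49395289-49395538, plus strand: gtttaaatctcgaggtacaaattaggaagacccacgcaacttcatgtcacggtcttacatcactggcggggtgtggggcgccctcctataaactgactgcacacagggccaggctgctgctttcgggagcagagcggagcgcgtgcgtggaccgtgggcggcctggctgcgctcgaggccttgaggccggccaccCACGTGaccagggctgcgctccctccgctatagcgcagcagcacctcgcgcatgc
Tdrd1, chr19:56825959-56826208, plus strand: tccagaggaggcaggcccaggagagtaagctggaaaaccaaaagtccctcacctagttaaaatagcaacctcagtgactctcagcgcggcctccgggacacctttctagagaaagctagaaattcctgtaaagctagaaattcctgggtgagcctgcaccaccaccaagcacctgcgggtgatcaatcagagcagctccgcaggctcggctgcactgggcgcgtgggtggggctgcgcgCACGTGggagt
Ddx4, chr13:112652311-112652560, minus strand: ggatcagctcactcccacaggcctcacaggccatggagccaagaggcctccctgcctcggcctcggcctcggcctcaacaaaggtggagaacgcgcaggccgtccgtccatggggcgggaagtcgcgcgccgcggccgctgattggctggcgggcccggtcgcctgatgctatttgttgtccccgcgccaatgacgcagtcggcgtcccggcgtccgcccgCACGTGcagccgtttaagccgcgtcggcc
Wdr77, chr3:105959248-105959497, plus strand: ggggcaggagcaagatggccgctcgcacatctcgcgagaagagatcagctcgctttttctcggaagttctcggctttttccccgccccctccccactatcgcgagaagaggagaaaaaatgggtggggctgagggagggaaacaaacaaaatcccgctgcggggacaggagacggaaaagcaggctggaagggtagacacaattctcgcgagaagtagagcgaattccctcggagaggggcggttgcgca
Snd1, chr6:28480098-28480347, plus strand: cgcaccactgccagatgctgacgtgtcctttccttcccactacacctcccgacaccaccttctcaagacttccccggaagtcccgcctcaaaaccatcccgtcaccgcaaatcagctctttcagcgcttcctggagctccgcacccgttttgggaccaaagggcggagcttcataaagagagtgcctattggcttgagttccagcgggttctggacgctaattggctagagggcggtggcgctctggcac

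The hexamer began 55 bases before the start in Stk31, 11 in Tdrd1 and 29 in Ddx4, and Wdr77 and Snd1 held none in this window. A promoter was listed for 26 of the 32 genes, and CACGTG, which reads the same on both strands, was in 9 of them (34.6%), against 6.05% of the 27025 genes with a listed promoter of the same length. The 9 were Boll, Ddx4, Fkbp6, Mael, Mov10l1, Piwil1, Stk31, Tdrd1 and Tdrd9. With captopril their values had both signs, 5 positive and 4 negative over 5 arrays with a median of 0.04, and the 16 measured genes without the hexamer in a listed promoter had 9 positive and 7 negative values with a median of 0.05. Over 6 arrays both medians were −0.12. Over 6 arrays the groups did not overlap in 3 of the 9, all lower with captopril (Stk31, Tdrd1 and Ddx4), and in 2 of the 16, 1 lower and 1 higher, beside 11.4% lower and 10% higher of all genes. Over 5 arrays these counts were 3 lower and 0 higher of the 9, and 2 lower and 6 higher of the 16, beside 15.7% and 27.2% of all genes. The other 6 motifs, searched on both strands, were GCATGC in 7 of the 26 promoters (26.9%, against 6.68% of all), TCCCGC in 7 (26.9%, against 16.9%), CAGTT in 6 (23.1%, against 39.1%), AACNG in 20 (76.9%, against 74.1%), GGCGGGA, which overlaps TCCCGC on the other strand, in 3 (11.5%, against 9.76%), and TGACGTCA in 0 (against 1.62%). The motifs were chosen with letter counts of these promoters in view, and a match is a description of the letters.

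Genes outside the set that belong to the same pathways showed no difference past the threshold either. Of 16 other piRNA pathway genes, 12 were measured and 0 passed in either limma fit. At an unadjusted p under 0.05 there were 0 of the 12 over 6 arrays and 3 over 5, beside 8.24% and 19.1% of all genes. The median log2 fold change of the 12 was 0.09 over 6 arrays and −0.03 over 5. Tex15, a germline protein needed for transposon silencing, stood at 2.46, 2.45 and 2.12 on water replicates 2, 3 and 4 and at 1.92, 1.92 and 1.80 with captopril. All its captopril arrays were lower, with a log2 fold change of −0.41 over 5 arrays (SE 0.16, limma adjusted p = 0.240). Dnmt3l, the cofactor of germline DNA methylation, gave −0.43, Adad1 gave 0.64 and the chaperone gene Hsp90aa1 gave 0.52 over 5 arrays, with adjusted p from 0.191 to 0.316, and −0.33, 0.29 and 0.15 over 6.

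Of 28 other germline RNA-binding genes, 27 were measured and 0 passed in either limma fit. At an unadjusted p under 0.05 there were 5 over 6 arrays, all lower, and 8 over 5, 7 lower and 1 higher. Of all genes 4.93% were lower and 3.31% higher at this p over 6 arrays, and 7% and 12.1% over 5. The median log2 fold change of the 27 was −0.25 over 6 arrays and −0.13 over 5. Over 6 arrays 21 of the 27 values were negative (53.3% of all genes were), 8 had captopril arrays below all water arrays (11.4% of all genes) and 2 above (10%). Over 5 arrays 16 were negative and 11 positive, with 12 lower and 3 higher without overlap, beside 15.7% and 27.2% of all genes. Meioc, which with Ythdc2 promotes the switch from mitosis to meiosis, stood at 1.64, 2.03 and 1.37 on water replicates 2, 3 and 4 and at 0.44, 0.76 and 0.23 with captopril. The groups were well apart, and the log2 fold change was −1.20 over 6 arrays (SE 0.27, limma adjusted p = 0.455) and −1.03 over 5 (SE 0.20, adjusted p = 0.0755). Ythdc2, its RNA-helicase partner, gave −1.24 over 6 arrays and −0.89 over 5 (SE 0.22, adjusted p = 0.106). Elavl2, an RNA-binding protein of germ cells and neurons, gave −1.38 over 6 arrays and −1.26 over 5 (SE 0.35, adjusted p = 0.137).

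The remaining lists also held 0 genes past the threshold in either limma fit. At an unadjusted p under 0.05 there were 1 and 2 of the 13 genes of the microRNA machinery over 6 and 5 arrays. There were 1 and 1 of the 14 of the methyltransferase and Sm list, and 3 and 2 of the 22 of the retrotransposon silencing list. The shares of all genes at this p were 8.24% over 6 arrays and 19.1% over 5. Among 13 genes of the microRNA machinery the median over 5 arrays was 0.00, and −0.19 over 6. Over 5 arrays Tnrc6c gave 0.78 (limma adjusted p = 0.0910), Tnrc6a, of the same scaffold family, gave −0.53, and the exporter gene Xpo5 gave −0.48, with 0.50, −0.56 and −0.79 over 6 arrays. Among 14 arginine methyltransferase partners and Sm proteins the median was 0.02, and −0.04 over 6 arrays. Snrpd1, Snrpg and Snrpd2 gave −0.46, −0.12 and 0.20 over 5 arrays and −0.71, −0.38 and −0.01 over 6. Among 22 retrotransposon silencing genes it was 0.01, and −0.20 over 6 arrays. Cbx5, a heterochromatin protein, stood at 0.24, 0.77 and 0.12 on water replicates 2, 3 and 4 and at −0.64, −0.59 and −1.27 with captopril, a log2 fold change of −1.21 over 6 arrays and −1.02 over 5 (SE 0.23, limma adjusted p = 0.0935). Its relative Cbx1 gave −0.63 over 6 arrays and −0.42 over 5, and the chromatin remodeller Hells gave −0.71 and −0.61.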

How the data were processed

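RNA of 6 cultures was hybridised to single-colour Agilent arrays. The deposited spot intensity values come from Agilent's Feature Extraction program (11.5.1.1 per the file headers, 10.7 per the submitters' processing notes), which subtracted background and flagged spots. The deposited series table holds log2 values made by the authors in steps that no source used here states. It follows log2 of the processed signal on each array with a 75th percentile close to 0, and was used as an alternative.

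Here, log2 of the processed signal minus the 75th percentile of each array was taken without control and outlier spots, and spots of a probe were averaged. Probes were named by accession through the RefSeq table of GRCm38.p6 (26762 of 55681). A gene was read by its brightest probe well above background on at least 3 arrays. limma 3.58.1 in R 4.3.3 compared the groups, with two-sided p and Benjamini-Hochberg adjustment over 14860 genes and a threshold of 0.05. Plots were made with matplotlib 3.10.9 and tables with pandas 2.3.3 and numpy 2.4.6 in Python 3.11.15. The code was tested on simulated data. The number of arrays limits the precision, and 3 arrays against 3 cannot reach an exact permutation p under 0.1. All arrays shared 1 slide and 1 scan date.

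Every gene of the set is accounted for. Of each other list, up to 2 genes with the smallest p in each fit are named. The members and lists were chosen with earlier results of these data known. The alternatives were normexp background correction (offset 50, on the median spot signal), quantile normalization, scaling by the array median, the authors' table, detection required on all 6 arrays or on none, averaging the probes of a gene, robust eBayes with a variance trend, a block for replicate number or for slide row, the arrays of slide row 2 by themselves, a threshold of 0.10, and each array left out.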

Additional observations from a re-analysis of the deposited data

How the results depend on the processing

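In the 6-array comparison 0 genes passed by limma under each setting tried that kept all 6 arrays (13423 to 20268 genes tested, 344 to 1580 at an unadjusted p under 0.05) and in slide row 2 alone (1766), and leaving out 1 array gave 0 to 92, with 92 without water replicate 3. In the 5-array comparison the count of all genes, 92, became 0 with quantile normalization (3005 unadjusted), 0 with no filter on dim probes (2846), 0 with the slide row as a block or slide row 2 alone (1766 each), 39 with scaling by the array median, 215 with the replicate number as a block and 627 at a threshold of 0.10. Leaving out 1 more array gave 0 to 87, with 0 without water replicate 2, water replicate 4, captopril replicate 3 or captopril replicate 4 (1766, 1254, 1971 and 3436 unadjusted). The replicate block called 1 gene of the set, Mybl1, at −1.22 (SE 0.35, limma adjusted p = 0.0353), and no other setting called any. None of its captopril arrays was well above background, so that value is no measured fold. Same-numbered arrays did not deviate together (correlations of −0.02, 0.02 and −0.19 for replicates 2, 3 and 4). The deviations were taken from group means that include water replicate 3, so they cannot settle whether the numbers pair the samples. The median of the set was −0.42 over 6 arrays with scaling by the array median, and over 5 arrays it was −0.027 after quantile normalization and −0.082 after scaling by the array median. The slide row as a block, or slide row 2 alone, turned the 6-array median from −0.12 to 0.08 (16 positive and 14 negative values, all genes 0.11); slide row 1 holds water arrays only. Leaving out 1 array gave medians of −0.32 to 0.05 from 6 arrays and 0.01 to 0.08 from 5. Of the 30 genes, 14 kept their sign under all alternatives over 6 arrays and 21 over 5. The causes were not tested. Signals near background limit Mybl1 and Tdrd6.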
